A study of Mus musculus with 4 samples.

Results

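Natural killer cells of the mouse lung were picked out of 4 single-cell RNA libraries by their transcripts. A barcode counted as a natural killer (NK) cell when at least 2 of the 6 genes Ncr1, Klrb1c, Klre1, Klra8, Klra4 and Eomes were detected with at least 2 unique molecular identifiers (UMIs, each marking 1 captured RNA molecule) in sum. It also had to hold no UMI of the T cell receptor complex genes Cd3e, Cd3d and Cd3g and none of Cd79a, C1qa, Marco, Csf3r and Cdh5, genes of B cells, macrophages, alveolar macrophages, neutrophils and endothelium. 769 of 34440 cells (2.23%) met this rule. The cells were thus chosen by the UMI counts of these 14 genes, so their levels are given only as a description.

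The lungs came from male wild-type C57BL/6 mice of 6 to 7 weeks. LPS+RT mice received 200 µg of lipopolysaccharide (LPS) of E. coli O55:B5 into the trachea and 1 Gy of X-rays to the thorax (RT) on the following day. LPS mice received the LPS alone, PBS+RT mice 100 µL of phosphate-buffered saline and the X-rays, and PBS mice the saline alone. All lungs were taken 48 hours after the injection, which was 24 hours after irradiation in the RT groups, and mononuclear cells were enriched on Ficoll-Paque of grade 1.084 before 10x 3' sequencing. Each group is 1 library, and how many mice a library holds is not stated in the labels, so no p-value is given and differences between groups cannot be told apart from differences between libraries.

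NK cells are innate lymphocytes that kill infected, stressed or transformed cells and release cytokines. They read a balance of activating and inhibitory receptors, and kill by releasing perforin, which opens the target's membrane, and granzymes, proteases that start its death. Interleukin-12 and interleukin-18 from phagocytes make them secrete interferon-gamma, which arms macrophages and induces guanylate-binding proteins, chemokines and antigen presentation genes in many cells. In the lung most NK cells circulate and are mature, and they are among the early sources of interferon-gamma after endotoxin.

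The libraries held 10996 barcodes in LPS+RT, 9572 in LPS, 6708 in PBS+RT and 10083 in PBS, and 65995600 to 80013887 UMIs. NK cells numbered 246 in LPS+RT, 277 in LPS, 103 in PBS+RT and 143 in PBS. Their median depth was 5268 UMIs in LPS+RT, 6957 in LPS, 7201 in PBS+RT and 5442 in PBS, and their UMIs summed to 774019 to 2075585. Levels below are CPM, a count scaled to 1000000 UMIs, from the UMIs of a gene summed over the NK cells of a library and divided by their total. Ranges in brackets after a fold or share are exact 95% intervals, which cover counting error only and not the spread between animals. A count of 0 in all NK cells of a library allows up to 1.45 CPM in LPS and up to 3.88 CPM in PBS+RT, the lowest and the highest limit.

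The NK label was set beside markers that the rule did not use. All 15 other NK markers of the list were at 20 CPM or more in every library and summed to 16027 CPM in LPS+RT, 17194 CPM in LPS, 15553 CPM in PBS+RT and 18032 CPM in PBS. Gzma, which encodes granzyme A, was 66.9-fold to 924-fold higher in NK cells than in T-gated cells of the same library (at least 2 UMIs from at least 2 of the 3 Cd3 genes and none of the other rule genes). Prf1, the perforin gene, was 63.1-fold to 89.6-fold higher, and Tyrobp, which encodes the DAP12 adaptor of activating receptors, 33.3-fold to 136-fold. Irf8, a transcription factor of mature NK cells, was 37.2-fold to 195-fold higher and the T-bet gene Tbx21 14.9-fold to 30.4-fold. In contrast, Il7r, the receptor gene of naive T cells and of other innate lymphoid cells, stood in NK cells at 0.0336 to 0.0796 of its T-gated level. T cells with a UMI of an NK marker of the rule were left out of the T gate. These ratios to T-gated cells are thus not independent of the rule.

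The 14 markers of group 2 and 3 innate lymphoid cells summed to 376 CPM in LPS+RT, 264 CPM in LPS, 442 CPM in PBS+RT and 336 CPM in PBS. At 20 CPM or more were 3, 4, 3 and 3 of them, in that order. Among them Il5, Il13, Il22 and Il23r were at 0 in the NK cells of all 4 libraries. Rora was at 265 CPM in LPS+RT, 174 CPM in LPS, 324 CPM in PBS+RT and 218 CPM in PBS. Gata3 was at 38.3 CPM in LPS+RT, 29.9 CPM in LPS, 43.9 CPM in PBS+RT and 33.7 CPM in PBS, and Areg at 21.2 CPM in LPS. The 15 T cell markers outside the rule summed to 668 to 984 CPM, mostly Lef1, Trbc1 and Trbc2, which NK cells also transcribe. Trac, the constant region gene of the T cell receptor alpha chain, was at 13.3 CPM in LPS+RT, 12.5 CPM in LPS, 2.58 CPM in PBS+RT and 12.5 CPM in PBS, and Cd4, Cd8a and Cd8b1 were each at 0 in at least 1 library. Of the NK cells, 20 stood at exactly 2 marker UMIs, 79 had exactly 2 of the 6 marker genes and 148 had all 6. Just outside the rule, 286 cells free of the excluded genes had 1 marker UMI and 30 had more UMIs but of 1 marker gene. The exclusions removed 166 marker-positive cells for a Cd3 gene and 261 for another excluded gene. Ncr1, which encodes the activating receptor NKp46, was detected in 77.6% of the NK cells in LPS+RT, 89.9% in LPS, 86.4% in PBS+RT and 81.8% in PBS.

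RNA of other cells was present in these droplets and differed between libraries, and its part in the results below was not tested unless a value is given. The macrophage and monocyte markers summed to 1994 CPM in LPS+RT, 754 CPM in LPS, 630 CPM in PBS+RT and 1128 CPM in PBS (10, 6, 5 and 5 of 16 markers at 20 CPM or more, in that order). Neutrophil markers summed to 283 CPM in LPS+RT, 723 CPM in LPS, 73.6 CPM in PBS+RT and 58.7 CPM in PBS, with 4, 4, 1 and 0 of 10 at 20 CPM or more. From S100a8 and S100a9, neutrophil RNA stood at 0.117%, 0.636%, 0.0545% and 0.0324% of its level in neutrophil-gated cells. Fibroblast markers were highest in LPS+RT (564 CPM) and epithelial markers in PBS (1896 CPM), where 92.3% of the Sftpc UMIs lay in 1 cell. A narrower gate, set after these values were seen, keeps the 210, 252, 88 and 106 NK cells of LPS+RT, LPS, PBS+RT and PBS with at most 2 UMIs from 35 markers of other cells. Values in that gate are given where they change a statement.

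The share of NK cells was higher after LPS, with and without irradiation. NK cells were 2.48% (2.18 to 2.81) of cells in LPS+RT, 3.03% (2.69 to 3.40) in LPS, 1.62% (1.33 to 1.97) in PBS+RT and 1.58% (1.33 to 1.86) in PBS. The intervals of the LPS-treated lungs lay above those of the saline-treated lungs, and those of PBS+RT and PBS overlapped over almost their whole length. The share was 1.92-fold higher (1.56 to 2.36) in LPS than in PBS and 1.53-fold higher (1.21 to 1.94) in LPS+RT than in PBS+RT. It was 1.22-fold lower (1.03 to 1.46) in LPS+RT than in LPS, and the ratio of PBS+RT to PBS was 1.03 (0.789 to 1.33).

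Since the rule needs detected UMIs, shares were also taken with every cell thinned to 2000 UMIs, where they were 3.63% in LPS+RT, 4.10% in LPS, 2.04% in PBS+RT and 2.31% in PBS. The ratio of LPS to PBS was then 1.77 (1.45 to 2.18) and that of LPS+RT to PBS+RT 1.78 (1.42 to 2.25). The ratio of LPS+RT to LPS was 0.884 (0.744 to 1.05), an interval that includes 1. Among NK, T-gated and B-gated cells together, NK cells were 29.2% of 842 in LPS+RT, 30.7% of 901 in LPS, 18.6% of 554 in PBS+RT and 18.2% of 785 in PBS. Within these lymphocytes the ratio of LPS+RT to LPS was 0.9503 (0.797 to 1.13). Shares of all cells move with every other cell type and with the gradient, which was meant to enrich mononuclear cells: neutrophil-gated cells numbered 250 in LPS+RT, 1587 in LPS, 85 in PBS+RT and 50 in PBS.

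**Figure D1:**
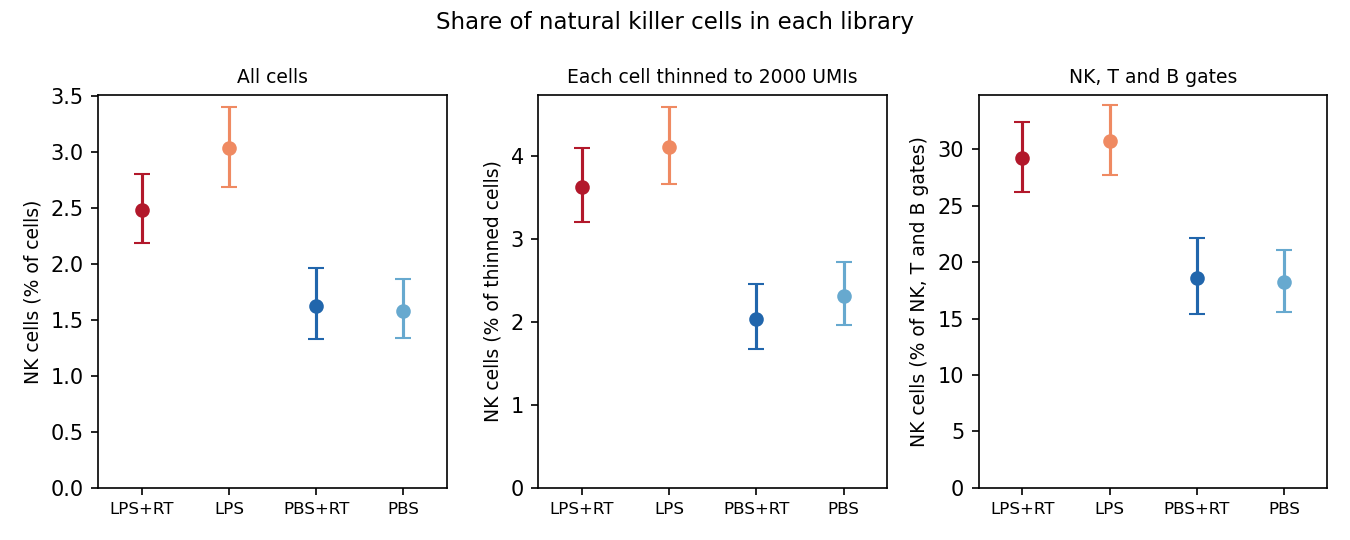
Share of NK cells (y axis, percent) in the LPS+RT, LPS, PBS+RT and PBS libraries (x axis) among all cells, among cells thinned to 2000 UMIs, and among NK, T-gated and B-gated cells; points are shares and bars exact 95% intervals for counting error. In each of the 3 panels LPS+RT and LPS lie above PBS+RT and PBS, with 2.48% and 3.03% against 1.62% and 1.58% among all cells.

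For expression, 6060 genes with a mean of at least 20 CPM over the 4 libraries were compared, and a gene was called higher or lower at a difference of at least 1.5-fold. Against these 4 backgrounds the gene groups below are read. In LPS against PBS, 877 genes (14.5%) were called higher and 647 (10.7%) lower. In LPS+RT against PBS+RT, 416 (6.86%) were higher and 1038 (17.1%) lower. In LPS+RT against LPS, 376 (6.2%) were higher and 526 (8.68%) lower. In PBS+RT against PBS, 1498 (24.7%) were higher and 693 (11.4%) lower. The median log2 ratio of all genes compared was 0.04 in LPS against PBS, -0.18 in LPS+RT against PBS+RT, -0.05 in LPS+RT against LPS and 0.19 in PBS+RT against PBS, so list medians are set beside these values. Members of a list below the filter were not compared, and a weakly expressed gene could pass through the library in which it was high, so the counts describe only the members that passed.

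The counts of genes higher and lower moved with the scale in both comparisons with the PBS+RT library, and the ratios split by gene length in several comparisons. With size factors in place of total UMIs, 736 genes were higher and 496 lower in LPS+RT against PBS+RT, and 862 higher and 1109 lower in PBS+RT against PBS. Of the 2020 longest genes, those of over 52963.7 bp, 47.3% were called higher and 1.98% lower in PBS+RT against PBS, with a median of 0.56, while the 2020 shortest had a median of -0.27. In LPS+RT against PBS+RT these medians were -0.36 for the longest and 0.08 for the shortest genes. They were, for LPS against PBS, which does not involve PBS+RT, 0.29 for the longest and -0.23 for the shortest genes, a wider gap than in LPS+RT against PBS+RT, with 24.7% of the longest genes called higher and 19.5% of the shortest lower. The gap was smallest of the 4 comparisons in LPS+RT against LPS (-0.12 and 0.05). PBS+RT is also the library with the fewest NK cells and the most UMIs per cell, and the part of depth in the split was not tested.

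The killing genes Gzma, Prf1, Gzmb and Nkg7 were transcribed at a high level in all 4 libraries and passed 1.5-fold in none of the 4 comparisons. Of the 28 cytotoxic genes 20 were compared, of which 2 were called higher and 1 lower in LPS against PBS (median -0.03), and 1 higher and 2 lower in LPS+RT against LPS (median -0.06). In LPS+RT against PBS+RT 3 were higher and 2 lower (median 0.15, or 0.32 with size factors), and in PBS+RT against PBS 3 were higher and 3 lower (median -0.18). Of all genes, 25.1% were called in either direction in LPS against PBS and 14.9% in LPS+RT against LPS. The share was 24% in LPS+RT against PBS+RT and 36.2% in PBS+RT against PBS. The list as a whole is thus not read as steadier than other genes. Gzma (chr13:113093825-113100981, mm10) had 7868 CPM in LPS+RT, 8559 CPM in LPS, 7172 CPM in PBS+RT and 8872 CPM in PBS. None of the 4 comparisons passed 1.5-fold, and PBS+RT, the lowest, was 1.24-fold lower (1.19 to 1.28) against PBS. Prf1 (chr10:61297833-61304680) had 939 CPM in LPS+RT, 1267 CPM in LPS, 873 CPM in PBS+RT and 1031 CPM in PBS, highest in LPS. It was 1.23-fold higher (1.14 to 1.33) in LPS against PBS and 1.35-fold lower (1.26 to 1.44) in LPS+RT against LPS. Gzmb, which encodes granzyme B, had 583 CPM in LPS+RT, 815 CPM in LPS, 515 CPM in PBS+RT and 678 CPM in PBS, the same order as Prf1, and was 1.396-fold lower (1.28 to 1.52) in LPS+RT against LPS. Nkg7, a granule membrane protein gene needed for degranulation, had 2569 CPM in LPS+RT, 2572 CPM in LPS, 2092 CPM in PBS+RT and 2924 CPM in PBS.

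A few genes of granule release and self-protection did pass 1.5-fold. Stx11, which encodes a syntaxin needed for the fusion of lytic granules, had 54.5 CPM in LPS+RT, 133 CPM in LPS, 74.9 CPM in PBS+RT and 38.7 CPM in PBS. It was 3.45-fold higher (2.37 to 5.17) in LPS against PBS and 2.45-fold lower (1.89 to 3.21) in LPS+RT against LPS. Serpinb9b, a gene of the granzyme B inhibitor family, had 75.9 CPM in LPS+RT, 184 CPM in LPS, 121 CPM in PBS+RT and 59.9 CPM in PBS and was 3.07-fold higher (2.27 to 4.24) in LPS against PBS and 2.43-fold lower (1.95 to 3.05) in LPS+RT against LPS. Both genes stood highest in LPS. Since Serpinb9b has close copies, its counts may include reads of Serpinb9, which had 787 CPM in LPS+RT, 964 CPM in LPS, 906 CPM in PBS+RT and 716 CPM in PBS. Lamp1, which encodes a membrane protein of lysosomes and lytic granules, was low in LPS at 62.2 CPM and in PBS+RT at 65.9 CPM. It had 109.8 CPM in PBS and 112 CPM in LPS+RT, 1.80-fold higher (1.42 to 2.30) against LPS. Fasl, the death ligand gene, had 248 CPM in LPS+RT, 291 CPM in LPS, 364 CPM in PBS+RT and 307 CPM in PBS and did not pass 1.5-fold in any of the 4 comparisons.

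Cytokine and chemokine genes were higher after LPS both without and with irradiation. Of 23 genes of the list 9 were compared, and 5 were called higher and 1 lower in LPS against PBS (median 1.15), and 6 higher and 0 lower in LPS+RT against PBS+RT (median 1.21, with all 9 ratios above 1). The backgrounds there are 14.5% and 6.86% higher. Cxcl10, a member counted here, passed the filter on low values only through its level in LPS. For LPS+RT against LPS 4 of the 9 were lower and 0 higher (median -0.52), and in PBS+RT against PBS 6 were lower and 0 higher (median -1.03). The backgrounds for these counts are 8.68% and 11.4% lower. In PBS+RT against PBS the interval lay wholly below a ratio of 1 for 4 of the 6. All 6 are among the shortest genes, of which 25.8% were called lower in that comparison. The 2 comparisons of LPS with saline share no library.

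Ifng (chr10:118441046-118445892), which encodes interferon-gamma, had 129 CPM in LPS+RT, 473 CPM in LPS, 62.0 CPM in PBS+RT and 74.9 CPM in PBS. It was highest in LPS and lowest in PBS+RT, and LPS+RT lay between LPS and the saline-treated lungs. The level was 6.31-fold higher (4.86 to 8.33) in LPS against PBS, 3.67-fold lower (3.12 to 4.33) in LPS+RT against LPS and 2.08-fold higher (1.503 to 2.92) in LPS+RT against PBS+RT. PBS+RT and PBS could not be told apart by counting error, at 1.21-fold lower (0.812 to 1.80). With cells thinned to 2000 UMIs the log2 ratio of LPS+RT to PBS+RT was 0.43 in place of 1.06, under the 1.5-fold threshold, and in the narrower gate it was 1.43.

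Xcl1 (chr1:164931644-164935527), the gene of a chemokine that draws cross-presenting dendritic cells, had 179.8 CPM in LPS+RT, 502 CPM in LPS, 56.8 CPM in PBS+RT and 201 CPM in PBS. It was 2.50-fold higher (2.11 to 2.97) in LPS against PBS and 3.16-fold higher (2.29 to 4.46) in LPS+RT against PBS+RT. Irradiated lungs were lower on both backgrounds, 2.79-fold lower (2.42 to 3.22) in LPS+RT against LPS and 3.54-fold lower (2.52 to 5.05) in PBS+RT against PBS. Ccl3, the MIP-1 alpha gene, had 224 CPM in LPS+RT, 320.4 CPM in LPS, 71.1 CPM in PBS+RT and 145 CPM in PBS, and Ccl4, the MIP-1 beta gene, had 969.5 CPM in LPS+RT, 1087 CPM in LPS, 362 CPM in PBS+RT and 823 CPM in PBS. Both chemokines, which attract monocytes and lymphocytes, were lowest in PBS+RT. Ccl3 was 2.21-fold higher (1.81 to 2.72) in LPS against PBS and 3.15-fold higher (2.36 to 4.28) in LPS+RT against PBS+RT, and Ccl4 1.32-fold higher (1.21 to 1.44) and 2.68-fold higher (2.35 to 3.06). Thinned NK cells held Ccl3 in 19.6% in LPS+RT, 32.7% in LPS, 14.1% in PBS+RT and 13.5% in PBS, against 2.96% in LPS+RT, 13.7% in LPS, 0% in PBS+RT and 0.980% in PBS of B-gated cells. Ccl5, the most abundant gene of the list, had 13812 CPM in LPS+RT, 10036 CPM in LPS, 10459.7 CPM in PBS+RT and 13685 CPM in PBS and passed 1.5-fold in none of the 4 comparisons. Tgfb1, the gene of the regulatory cytokine TGF-beta 1, had 211 CPM in LPS+RT, 389 CPM in LPS, 159 CPM in PBS+RT and 119.8 CPM in PBS, 3.25-fold higher (2.63 to 4.06) in LPS against PBS and 1.84-fold lower (1.61 to 2.11) in LPS+RT against LPS.

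Cxcl10 (chr5:92346638-92348889), the gene of an interferon-induced chemokine that draws T and NK cells through CXCR3, had 17.7 CPM in LPS+RT, 205 CPM in LPS, 1.29 CPM in PBS+RT and 4.99 CPM in PBS. The LPS level rests on 426 UMIs in 62 cells, against 24 UMIs in 7 cells of LPS+RT, 1 UMI in PBS+RT and 4 UMIs in PBS. It was 41.1-fold higher (15.9 to 152) in LPS against PBS and 11.6-fold lower (7.70 to 18.3) in LPS+RT against LPS. In LPS+RT 66.7% of the UMIs lay in 1 cell, and without the top cell of each library the log2 ratio of LPS+RT to PBS+RT was 0.60.

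**Figure D2:**
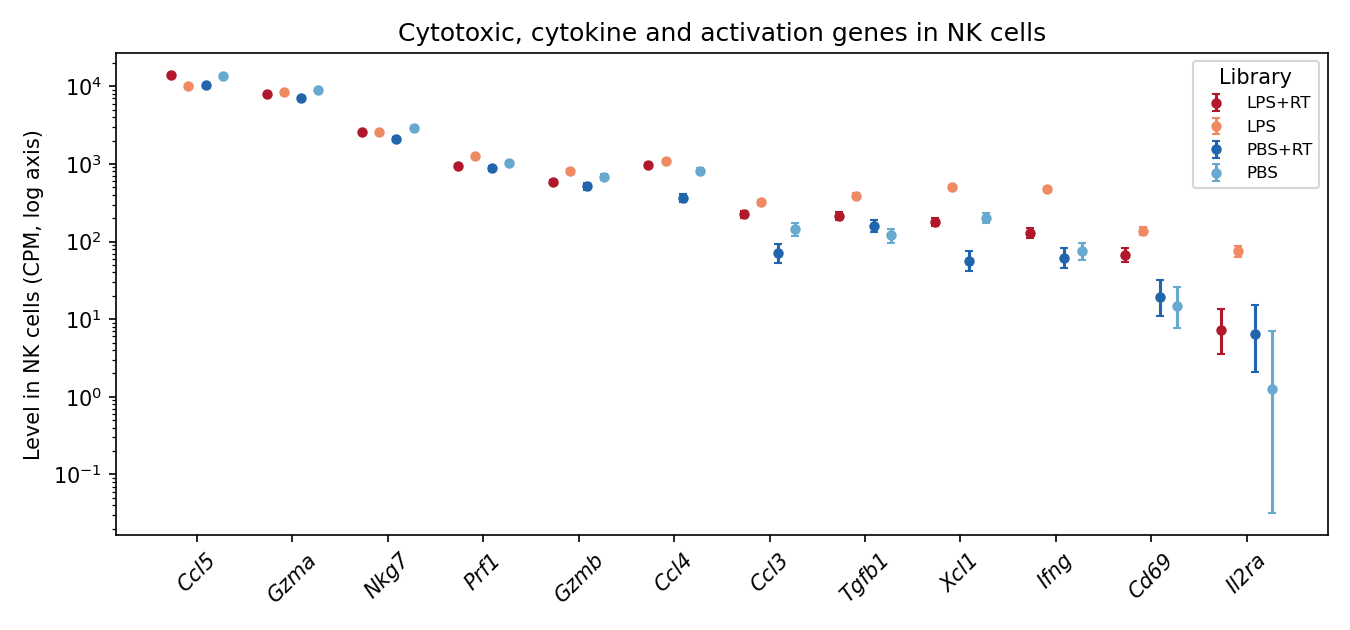
Level in NK cells (y axis, CPM, log axis) of 12 cytotoxic, cytokine and activation genes (x axis) in LPS+RT, LPS, PBS+RT and PBS; points are CPM and bars exact 95% Poisson intervals, hidden by the point where they are short. Ccl5, Gzma and Nkg7 lie close together across libraries, while Ifng, Xcl1, Cd69 and Il2ra stand highest in LPS, as Ifng does with 473 CPM against 74.9 CPM in PBS.

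The number of cells with an Ifng UMI was also highest in LPS. With each cell thinned to 2000 UMIs (224 NK cells of LPS+RT, 266 of LPS, 99 of PBS+RT and 126 of PBS), 19.2% in LPS+RT, 28.6% in LPS, 12.1% in PBS+RT and 15.9% in PBS held a UMI of Ifng. The intervals were 14.3 to 25.0% in LPS+RT, 23.2 to 34.4% in LPS, 6.42 to 20.2% in PBS+RT and 9.97 to 23.4% in PBS, so LPS stood clear of PBS+RT and neighbouring groups overlapped. B-gated cells thinned alike, which should lack the gene, had 0.329% in LPS+RT, 0.980% in LPS, 0% in PBS+RT and 0% in PBS. Unthinned, 32.9% of NK cells in LPS+RT, 54.5% in LPS, 23.3% in PBS+RT and 27.3% in PBS held one. Xcl1 was found in 14.7% in LPS+RT, 29.7% in LPS, 6.06% in PBS+RT and 16.7% in PBS of the thinned NK cells, and in at most 0.654% of B-gated cells. Ccl4 was found in 50.9% in LPS+RT, 56.8% in LPS, 30.3% in PBS+RT and 41.3% in PBS, and in 2.30% in LPS+RT, 6.21% in LPS, 0.347% in PBS+RT and 0.980% in PBS of B-gated cells, highest in LPS in both. Gzma was found in 90.6% in LPS+RT, 97.7% in LPS, 94.9% in PBS+RT and 89.7% in PBS, and in 4.28% in LPS+RT, 3.92% in LPS, 0.347% in PBS+RT and 2.70% in PBS of B-gated cells, so nearly every NK cell held it in every library.

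**Figure D3:**
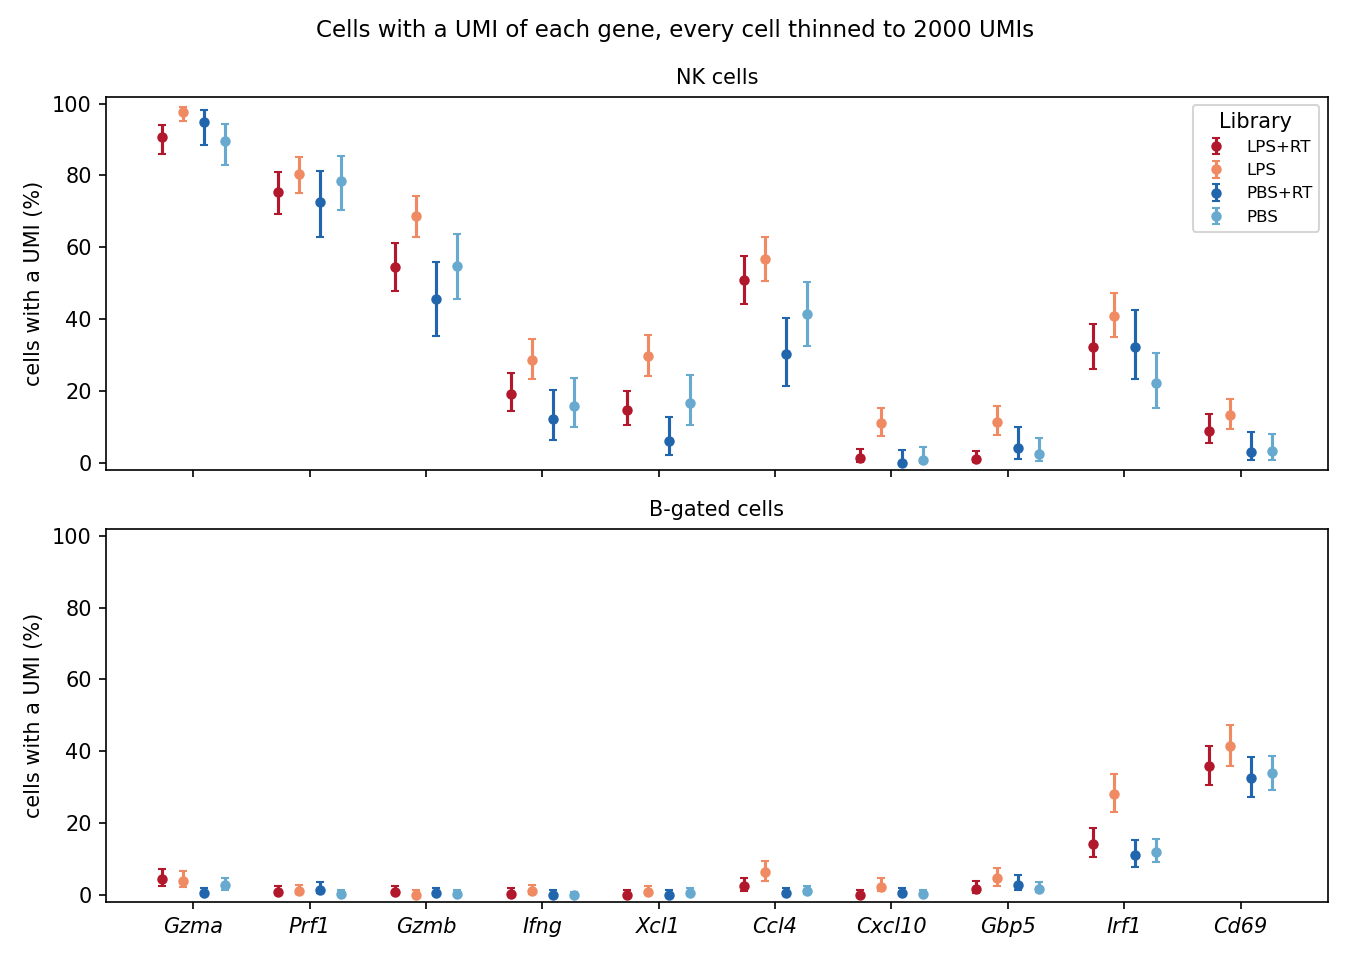
Percent of cells with at least 1 UMI of each gene (y axis) for 10 genes (x axis) in LPS+RT, LPS, PBS+RT and PBS after thinning each cell to 2000 UMIs, for NK cells (upper panel) and B-gated cells (lower panel), with exact 95% intervals. Gzma and Prf1 mark most NK cells of every library, Ifng 28.6% of them in LPS against 15.9% in PBS, and Cd69 is found in B-gated cells more often than in NK cells.

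Most Ifng UMIs lay in few of the NK cells in every library. The cells with the most Ifng (25 in LPS+RT, 28 in LPS, 10 in PBS+RT and 14 in PBS) held 60.6% of its UMIs in LPS+RT, 66.7% in LPS, 64.6% in PBS+RT and 58.3% in PBS. They were ranked by Ifng itself, from 48 UMIs in PBS+RT and 60 in PBS. No gene of like level was set beside it, so these shares do not show more than sparse counts would give. In LPS the 151 cells with an Ifng UMI (median 7482 UMIs) had 672 CPM of Xcl1, against 251 CPM in the 126 cells without one (median 6366 UMIs), 2.68-fold higher (2.30 to 3.13). Il2ra, the gene of the high-affinity interleukin-2 receptor chain that activated lymphocytes induce, was at 122 CPM in cells with Ifng and 5.95 CPM in cells without, 20.5-fold higher (8.61 to 64.2). Gbp5 was 2.42-fold higher (1.72 to 3.48) in cells with Ifng, Ccl3 1.74-fold (1.47 to 2.07) and Ccl4 1.69-fold (1.54 to 1.85). Among the cytotoxic genes in LPS the ratio was 0.940 (0.912 to 0.968) for Gzma, 0.907 (0.839 to 0.980) for Prf1 and 1.25 (1.13 to 1.39) for Gzmb. In PBS the ratio for Gzma was 1.23 (1.17 to 1.29). In LPS+RT the 81 cells with Ifng had Xcl1 1.88-fold higher (1.45 to 2.45) than the 165 without. In PBS the direction for Xcl1 was opposite, with a ratio of 0.425 (0.266 to 0.654) between 39 cells with and 104 without. Deeper cells hold a UMI more often, and cells of 1 library are not replicates.

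NK cells also carried the transcripts that interferon-gamma induces, and 12 of those compared were called higher in LPS than in PBS. Of 32 genes of the list 21 were compared. In LPS against PBS 12 were called higher and 0 lower, where 14.5% of all genes were higher, and the median was 0.85. For LPS+RT against LPS 12 were lower and 0 higher, where 8.68% of all genes were lower, and the median was -0.75. Among the genes counted in both, Cxcl10, Gbp2, Gbp3 and Gbp5 passed the filter on low values only through their level in LPS. Their calls were thus in part fixed by that filter and add no support. For LPS+RT against PBS+RT 3 were higher and 3 lower, with a median of -0.07 that was 0.10 with size factors and 0.14 after thinning. In PBS+RT against PBS 5 were higher and 2 lower, with a median of -0.07.

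Gbp5 (chr3:142493978-142522344), a guanylate-binding GTPase gene that takes part in inflammasome assembly, had 13.3 CPM in LPS+RT, 94.4 CPM in LPS, 27.1 CPM in PBS+RT and 9.99 CPM in PBS. LPS stood apart from the other 3 libraries, 9.46-fold higher (4.71 to 22.2) against PBS. LPS+RT was 7.12-fold lower (4.39 to 12.3) against LPS and 2.05-fold lower (1.04 to 4.07) against PBS+RT. Gbp2, of the same family, had 18.4 CPM in LPS+RT, 62.2 CPM in LPS, 18.1 CPM in PBS+RT and 20.0 CPM in PBS, with 37.2% of the LPS UMIs in 1 cell, and was 3.11-fold higher (1.85 to 5.61) in LPS against PBS and 3.37-fold lower (2.19 to 5.41) in LPS+RT against LPS. Irf1 (chr11:53770014-53778374), the gene of a transcription factor that interferon-gamma induces and that itself drives interferon targets, had 176 CPM in LPS+RT, 285 CPM in LPS, 207 CPM in PBS+RT and 136 CPM in PBS, with PBS lowest. It was 2.09-fold higher (1.70 to 2.59) in LPS against PBS, 1.62-fold lower (1.39 to 1.89) in LPS+RT against LPS and 1.52-fold higher (1.18 to 1.96) in PBS+RT against PBS.

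Nlrc5, the transactivator gene of MHC class I, had 61.9 CPM in LPS+RT, 133 CPM in LPS, 121 CPM in PBS+RT and 66.2 CPM in PBS and was 2.01-fold higher (1.49 to 2.75) in LPS against PBS and 2.15-fold lower (1.68 to 2.78) in LPS+RT against LPS. Ly6a, which encodes the Sca-1 surface protein, had 29.5 CPM in LPS+RT, 104 CPM in LPS, 31.0 CPM in PBS+RT and 36.2 CPM in PBS and was 2.86-fold higher (1.94 to 4.38) and 3.52-fold lower (2.50 to 5.06) in the same comparisons. Other members called higher in LPS against PBS included Gbp3, Gbp7, Socs1, Cd274, Serpina3g and Cxcl10. Genes for peptide supply to MHC class I behaved differently: none of Psmb8, Psmb9, Psmb10, Tap1, Tap2 and Tapbp passed 1.5-fold in that comparison. Shares of thinned cells are set beside those of B-gated cells here, and whether the latter reflect background or their own transcripts was not tested. Gbp5 was found in 0.893% in LPS+RT, 11.3% in LPS, 4.04% in PBS+RT and 2.38% in PBS of NK cells and in 1.64% in LPS+RT, 4.58% in LPS, 2.78% in PBS+RT and 1.72% in PBS of B-gated cells. Irf1 was found in 32.1% in LPS+RT, 41.0% in LPS, 32.3% in PBS+RT and 22.2% in PBS of NK cells and in 14.1% in LPS+RT, 28.1% in LPS, 11.1% in PBS+RT and 12.0% in PBS of B-gated cells, so it was high in LPS in both cell types. Gbp2 was found in 4.02% in LPS+RT, 7.14% in LPS, 2.02% in PBS+RT and 3.17% in PBS of NK cells. In B-gated cells its shares were 0.987% in LPS+RT, 8.82% in LPS, 1.04% in PBS+RT and 2.21% in PBS. In LPS it was thus no more frequent in NK cells than in B-gated cells.

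**Figure D4:**
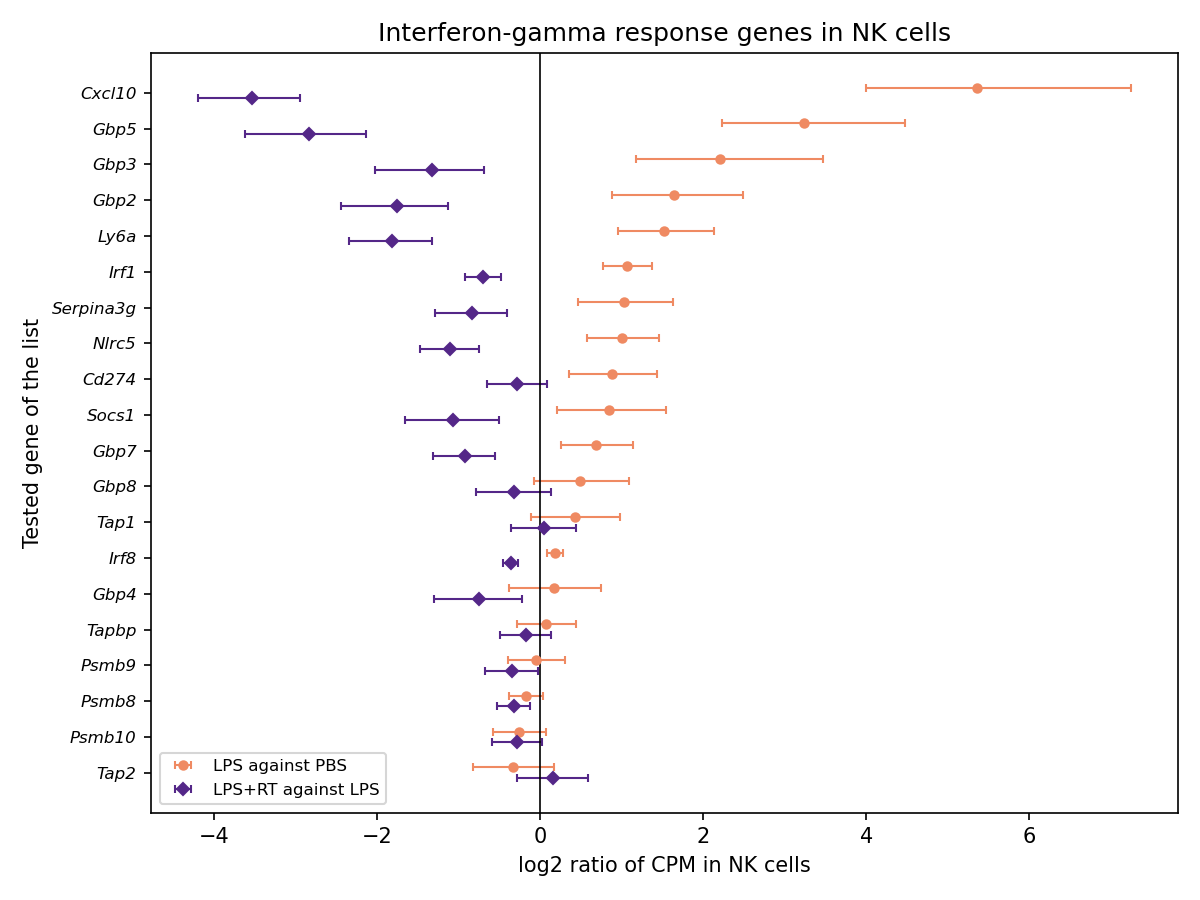
Log2 ratio of CPM in NK cells (x axis) for 20 of the 21 interferon-gamma response genes compared (y axis, ordered by the ratio of LPS to PBS); circles are LPS against PBS, diamonds LPS+RT against LPS, and bars exact 95% intervals for counting error. Cxcl10, Gbp5, Gbp3 and Gbp2 lie farthest to the right in LPS against PBS and all 4 lie left of 0 in LPS+RT against LPS, Cxcl10 at 5.36 and -3.54.

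Promoters of 4 genes higher in LPS are printed, since 2 elements through which interferons act can be read in them. The sequences are the 250 bases before the RefSeq start, which for Gbp5 and Gbp2 lies inside the GENCODE bounds of the gene, 5′ to 3′ on the gene's own strand, from RefSeq on GRCm38.p6. Capitals mark a gamma-activated site, the motif TTCNNNGAA, or a core of the interferon-stimulated response element, the IRF motif of GAAA, any 2 bases and GAAA again, or TTTC, any 2 bases and TTTC on the other strand. Overlaps were allowed.
Cxcl10 (chr5:92348890-92349139, minus strand): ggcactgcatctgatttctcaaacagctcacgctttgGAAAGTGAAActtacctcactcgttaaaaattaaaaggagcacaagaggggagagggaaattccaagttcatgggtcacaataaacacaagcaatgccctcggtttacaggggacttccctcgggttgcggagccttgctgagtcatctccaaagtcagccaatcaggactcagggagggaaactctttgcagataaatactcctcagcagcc
Gbp5 (chr3:142496684-142496933, plus strand): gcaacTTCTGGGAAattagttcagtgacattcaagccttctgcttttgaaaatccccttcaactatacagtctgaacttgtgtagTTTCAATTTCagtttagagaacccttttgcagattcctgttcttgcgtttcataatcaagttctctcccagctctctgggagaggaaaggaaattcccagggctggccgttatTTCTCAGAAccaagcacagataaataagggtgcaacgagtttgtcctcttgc
Irf1 (chr11:53769764-53770013, plus strand): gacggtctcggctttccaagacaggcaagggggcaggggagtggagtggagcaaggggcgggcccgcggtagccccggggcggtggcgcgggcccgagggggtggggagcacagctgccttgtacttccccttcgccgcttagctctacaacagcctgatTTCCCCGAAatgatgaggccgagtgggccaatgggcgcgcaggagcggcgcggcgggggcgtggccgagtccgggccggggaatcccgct
Gbp2 (chr3:142620413-142620662, plus strand): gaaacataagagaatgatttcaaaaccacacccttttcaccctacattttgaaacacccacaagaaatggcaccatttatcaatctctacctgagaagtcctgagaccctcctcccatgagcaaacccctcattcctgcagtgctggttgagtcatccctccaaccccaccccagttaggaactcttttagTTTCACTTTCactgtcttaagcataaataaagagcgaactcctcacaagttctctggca

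The Cxcl10 promoter holds the response element core GAAAGTGAAA at 213 to 204 bases upstream of the start. That of Gbp5 holds both elements, with TTCTGGGAA at 245 to 237, TTTCAATTTC at 165 to 156 and TTCTCAGAA at 52 to 44 bases upstream. The printed Irf1 promoter, 1 of 2 in the table, holds the site TTCCCCGAA at 90 to 82 bases upstream, while the other (chr11:53770223-53770472) holds neither motif, and the Gbp2 promoter the core TTTCACTTTC at 59 to 50. Of the 12 genes called higher in LPS, 9 have a promoter in the table. A gene was counted if any of its promoters there matched, and 4 (44.4%) hold a gamma-activated site, against 2306 of all 32851 promoters (7.02%), and 6 (66.7%) hold a response element core, against 978 (2.98%). The list was made of known interferon targets, and a match of letters shows no binding. Nlrc5 and Ly6a are among the genes without an entry there.

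Few genes that respond mainly to type I interferon could be compared. Of 29 genes of the list 27 are in the files and 9 passed the filter on low values, and 1 was higher and 1 lower in LPS against PBS (median 0.08). For LPS+RT against LPS 3 were lower and 0 higher, where 8.68% of all genes were lower, with 8 of the 9 ratios below 1 and a median of -0.31. Between LPS+RT and PBS+RT 0 were higher and 1 lower (median -0.19), and in PBS+RT against PBS 1 was higher and 1 lower (median -0.27, or 0.40 among members of at least 50 CPM). Isg15, a ubiquitin-like protein gene, had 19.2 CPM in LPS+RT, 28.4 CPM in LPS, 14.2 CPM in PBS+RT and 22.5 CPM in PBS. Zbp1, the gene of a sensor of nucleic acids in Z form, had 31.7 CPM in LPS+RT, 55.9 CPM in LPS, 36.2 CPM in PBS+RT and 48.7 CPM in PBS and was 1.76-fold lower (1.23 to 2.57) in LPS+RT against LPS.

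Cd69, Il2ra and Tnfrsf9, set together here after their values were seen, were highest in LPS. Cd69, an early activation and retention marker, had 67.04 CPM in LPS+RT, 138 CPM in LPS, 19.4 CPM in PBS+RT and 14.98 CPM in PBS. It was 9.23-fold higher (5.204 to 18.1) in LPS against PBS, 3.46-fold higher (1.99 to 6.43) in LPS+RT against PBS+RT and 2.06-fold lower (1.62 to 2.64) in LPS+RT against LPS. Thinned NK cells held Cd69 in 8.93% in LPS+RT, 13.2% in LPS, 3.03% in PBS+RT and 3.17% in PBS, less often than B-gated cells, which held it in 35.9% in LPS+RT, 41.5% in LPS, 32.6% in PBS+RT and 33.8% in PBS, so the share was not read as expression. Whether B-gated cells transcribe Cd69 themselves was not tested, so they give no level of background for it. Il2ra had 7.37 CPM in LPS+RT, 75.2 CPM in LPS, 6.46 CPM in PBS+RT and 1.25 CPM in PBS, from 10 UMIs in LPS+RT, 156 in LPS, 5 in PBS+RT and 1 in PBS. LPS stood alone, 60.2-fold higher (10.7 to 2393) against PBS, and LPS+RT was 10.2-fold lower (5.40 to 21.7) against LPS. Il2ra passed the filter on low values only through its level in LPS, so its calls in the lists below add no support. Tnfrsf9, the gene of the co-stimulatory receptor 4-1BB, had 129 CPM in LPS+RT, 239 CPM in LPS, 132 CPM in PBS+RT and 132 CPM in PBS, 1.81-fold higher (1.46 to 2.25) in LPS against PBS and 1.86-fold lower (1.56 to 2.22) in LPS+RT against LPS.

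Activating receptor genes, with which NK cells read their targets, were called in both directions in each comparison. Of 18 activating receptor and adaptor genes 15 were compared, of which 2 were higher and 2 lower in LPS against PBS (median -0.22), 1 higher and 3 lower in LPS+RT against PBS+RT (median -0.00), 2 higher and 1 lower in LPS+RT against LPS (median 0.25), and 1 higher and 1 lower in PBS+RT against PBS (median 0.03). In the same order, 25.1%, 24%, 14.9% and 36.2% of all genes were called in either direction, so these genes are not read as steadier than others. Klrk1, which encodes the activating receptor NKG2D, had 628 CPM in LPS+RT, 594 CPM in LPS, 748 CPM in PBS+RT and 789 CPM in PBS and passed 1.5-fold in none of them. Slamf7, an activating receptor gene of the SLAM family, had 119 CPM in LPS+RT, 211 CPM in LPS, 105 CPM in PBS+RT and 102.3 CPM in PBS and was 2.06-fold higher (1.62 to 2.64) in LPS against PBS. Hcst, the DAP10 adaptor gene through which NKG2D signals, was lowest in LPS, with 506 CPM in LPS+RT, 305 CPM in LPS, 385 CPM in PBS+RT and 506 CPM in PBS, 1.65-fold lower (1.46 to 1.88) against PBS. Tyrobp had 2144 CPM in LPS+RT, 1802 CPM in LPS, 1637 CPM in PBS+RT and 2571 CPM in PBS.

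Of 20 inhibitory receptor genes 9 were compared, of which 1 was higher and 0 lower in LPS against PBS (median 0.08), 0 higher and 2 lower in LPS+RT against PBS+RT (median -0.20, or 0.18 after thinning and 0.14 without a filter on low values), 0 higher and 1 lower in LPS+RT against LPS (median -0.05), and 3 higher and 0 lower in PBS+RT against PBS (median 0.32). Klrd1, which encodes the CD94 partner of NKG2 receptors, had 662 CPM in LPS+RT, 575 CPM in LPS, 682 CPM in PBS+RT and 786 CPM in PBS. Klrc1, which encodes the inhibitory receptor NKG2A, had 175 CPM in LPS+RT, 175 CPM in LPS, 359 CPM in PBS+RT and 249.6 CPM in PBS, with PBS+RT highest. It was 2.05-fold lower (1.72 to 2.45) in LPS+RT against PBS+RT. The ratio of LPS+RT to LPS was 1.00 (0.846 to 1.18). In thinned cells it was found in 26.3% in LPS+RT, 24.8% in LPS, 47.5% in PBS+RT and 31.0% in PBS, and in at most 0.329% of B-gated cells. Tigit, the gene of an inhibitory receptor for nectins, had 32.4 CPM in LPS+RT, 53 CPM in LPS, 43.9 CPM in PBS+RT and 20.0 CPM in PBS and was 2.65-fold higher (1.56 to 4.81) in LPS against PBS, 2.20-fold higher (1.18 to 4.27) in PBS+RT against PBS and 1.63-fold lower (1.14 to 2.38) in LPS+RT against LPS. Of 16 checkpoint and exhaustion genes, 11 of which are in other lists too, 10 were compared, of which 7 were higher and 0 lower in LPS against PBS (median 0.68) and 3 lower and 0 higher in LPS+RT against LPS (median -0.28). For LPS+RT against PBS+RT 1 was higher and 1 lower (median -0.10), and in PBS+RT against PBS 4 were higher and 0 lower (median 0.37).

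Among the genes of cytokine sensing PBS+RT stood highest for the receptors of interleukin-12 and interleukin-18. Of 33 genes 26 were compared, of which 8 were higher and 0 lower in LPS against PBS (median 0.38, with 5 ratios below 1) and 7 lower and 0 higher in LPS+RT against LPS (median -0.39). With LPS+RT against PBS+RT 1 was higher and 9 lower (median -0.41), and in PBS+RT against PBS 7 were higher and 1 lower (median 0.47, or 0.19 with the length trend removed). Of all genes 14.5% were higher in LPS against PBS, 8.68% lower in LPS+RT against LPS and 17.1% lower in LPS+RT against PBS+RT. In PBS+RT against PBS 24.7% of all genes were higher, close to the share of this list. Il12rb2, which encodes the signalling chain of the interleukin-12 receptor, had 932 CPM in LPS+RT, 1099 CPM in LPS, 1508 CPM in PBS+RT and 869 CPM in PBS. It was 1.74-fold higher (1.58 to 1.91) in PBS+RT against PBS and 1.62-fold lower (1.49 to 1.75) in LPS+RT against PBS+RT. Thinned cells held it in 73.7% in LPS+RT, 81.2% in LPS, 89.9% in PBS+RT and 66.7% in PBS, against at most 1.64% of B-gated cells. Il18r1, which encodes the interleukin-18 receptor, had 360.3 CPM in LPS+RT, 453 CPM in LPS, 678 CPM in PBS+RT and 353 CPM in PBS and was 1.92-fold higher (1.66 to 2.23) and 1.88-fold lower (1.66 to 2.13) in these comparisons. Il18rap, the second chain of that receptor, had 586 CPM in LPS+RT, 819.5 CPM in LPS, 839.8 CPM in PBS+RT and 575 CPM in PBS. Il12rb2 is among the longest genes, which as a whole were higher in PBS+RT than in PBS.

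The genes that carry cytokine signals inside the cell had no common order over the libraries. Stat4, the factor through which interleukin-12 acts, had 1049.85 CPM in LPS+RT, 1214 CPM in LPS, 1711 CPM in PBS+RT and 999.8 CPM in PBS and was highest in PBS+RT, a gene named after its values were seen. It too is among the longest genes. Stat3 was highest in LPS and had 719 CPM in LPS+RT, 1047 CPM in LPS, 863 CPM in PBS+RT and 519 CPM in PBS and was 2.02-fold higher (1.81 to 2.24) in LPS against PBS. Pim1, which encodes a survival kinase induced by STAT signals, had 339 CPM in LPS+RT, 702 CPM in LPS, 348 CPM in PBS+RT and 245 CPM in PBS and was 2.87-fold higher (2.47 to 3.35) in LPS against PBS and 2.07-fold lower (1.86 to 2.31) in LPS+RT against LPS. Pim2, a related kinase gene, had 31.7 CPM in LPS+RT, 133 CPM in LPS, 52.97 CPM in PBS+RT and 37.4 CPM in PBS, 3.56-fold higher (2.44 to 5.38) and 4.21-fold lower (3.05 to 5.95) in the same comparisons. Il2rb, the chain through which NK cells sense interleukin-15, had 958 CPM in LPS+RT, 1010.3 CPM in LPS, 1046 CPM in PBS+RT and 1052 CPM in PBS and passed 1.5-fold in none of the 4 comparisons.

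Genes of homing and retention pointed in different directions. Of 29 genes 24 were compared, of which 11 were higher and 4 lower in LPS against PBS (median 0.24), 2 higher and 5 lower in LPS+RT against PBS+RT (median -0.03), 1 higher and 4 lower in LPS+RT against LPS (median -0.15), and 4 higher and 2 lower in PBS+RT against PBS (median 0.06). S1pr1, a receptor gene for exit from tissue toward blood and lymph, was lower in both LPS-treated libraries, with 21.4 CPM in LPS+RT, 23.6 CPM in LPS, 52.97 CPM in PBS+RT and 47.4 CPM in PBS. It was 2.01-fold lower (1.28 to 3.13) in LPS against PBS and 2.48-fold lower (1.504 to 4.14) in LPS+RT against PBS+RT. Cx3cr1, the fractalkine receptor gene, had 71.5 CPM in LPS+RT, 103 CPM in LPS, 67.2 CPM in PBS+RT and 61.2 CPM in PBS. S1pr5, the sphingosine phosphate receptor gene of mature NK cells, had 53.04 CPM in LPS+RT, 59.3 CPM in LPS, 67.2 CPM in PBS+RT and 87.4 CPM in PBS. The integrin gene Itga2, which encodes the NK marker CD49b, had 507 CPM in LPS+RT, 705 CPM in LPS, 1077 CPM in PBS+RT and 441 CPM in PBS, and Itga4, an integrin gene for adhesion to inflamed endothelium, had 595 CPM in LPS+RT, 842 CPM in LPS, 1005 CPM in PBS+RT and 540.5 CPM in PBS. Both stood highest in PBS+RT, and Itga2 was 2.45-fold higher (2.16 to 2.78) against PBS. Both are among the longest genes, which as a whole were higher in PBS+RT than in PBS.

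Maturation of mouse NK cells runs from Cd27 to Itgam (CD11b) and Klrg1 under the factors T-bet and Zeb2. All 27 such genes were compared, of which 9 were higher and 3 lower in LPS against PBS (median 0.37), 2 higher and 2 lower in LPS+RT against PBS+RT (median -0.23, or -0.05 with size factors and 0.00 with the length trend removed), 2 higher and 4 lower in LPS+RT against LPS (median -0.20), and 7 higher and 3 lower in PBS+RT against PBS (median 0.34, or 0.01 with the length trend removed). Of all genes, 14.5% were higher in LPS against PBS and 24.7% in PBS+RT against PBS, the latter close to the share of this list. Cd27 had 54.5 CPM in LPS+RT, 39.0 CPM in LPS, 65.9 CPM in PBS+RT and 69.9 CPM in PBS and was 1.79-fold lower (1.25 to 2.55) in LPS against PBS. Itgam had 223 CPM in LPS+RT, 296 CPM in LPS, 204 CPM in PBS+RT and 196 CPM in PBS, 1.51-fold higher (1.27 to 1.81) in the same comparison. Klrg1 had 112 CPM in LPS+RT, 154 CPM in LPS, 99.5 CPM in PBS+RT and 126 CPM in PBS, and Tbx21 had 325 CPM in LPS+RT, 437 CPM in LPS, 366 CPM in PBS+RT and 288 CPM in PBS. Zeb2 had 616 CPM in LPS+RT, 636 CPM in LPS, 632 CPM in PBS+RT and 491 CPM in PBS and passed 1.5-fold nowhere.

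In thinned cells, those with Itgam but no Cd27 UMI numbered 75 of 224 in LPS+RT, 120 of 266 in LPS, 29 of 99 in PBS+RT and 38 of 126 in PBS. Those with Cd27 but no Itgam UMI numbered 14, 14, 7 and 14 in the same libraries. Itgam was found in 35.3% in LPS+RT, 48.1% in LPS, 35.4% in PBS+RT and 31.0% in PBS, against at most 2.29% of B-gated cells, and Cd27 in 8.04% in LPS+RT, 8.27% in LPS, 13.1% in PBS+RT and 11.9% in PBS, where B-gated cells had Cd27 in 1.64% in LPS+RT, 2.29% in LPS, 4.17% in PBS+RT and 2.94% in PBS. Neither UMI was found in 131, 124, 57 and 73 cells at this depth. Il7r had 56.0 CPM in LPS+RT, 23.1 CPM in LPS, 72.3 CPM in PBS+RT and 71.1 CPM in PBS, lowest in LPS, and 80.4% of its UMIs in PBS+RT lay in 1 cell. Ly6c2, a Ly6C gene that also marks monocytes, had 377 CPM in LPS+RT, 207 CPM in LPS, 179.6 CPM in PBS+RT and 404 CPM in PBS. Of 15 genes that mark type 1 innate lymphoid cells, which share several of the NK markers but not Eomes, 10 were compared, of which 3 were higher and 4 lower in LPS against PBS (median -0.37, or -0.97 among members of at least 50 CPM), 4 higher and 2 lower in LPS+RT against PBS+RT (median -0.21), 5 higher and 2 lower in LPS+RT against LPS (median 0.57) and 3 higher and 2 lower in PBS+RT against PBS (median 0.22). The rule takes Eomes as 1 of 6 markers and does not remove such cells.

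Cell cycle genes were lower in LPS+RT than in LPS. Of 40 genes of the list 15 passed the filter on low values. With LPS+RT against LPS 11 were lower and 0 higher, where 8.68% of all genes were lower, with a median of -0.89 and every one of the 15 ratios below 1. In LPS against PBS 4 were higher and 0 lower (median 0.25), in LPS+RT against PBS+RT 1 was higher and 7 lower (median -0.57), and in PBS+RT against PBS 3 were higher and 3 lower (median -0.28). Mcm4, a subunit gene of the replicative helicase, had 25.8 CPM in LPS+RT, 64.1 CPM in LPS, 27.1 CPM in PBS+RT and 32.5 CPM in PBS and was 1.97-fold higher (1.29 to 3.13) in LPS against PBS and 2.49-fold lower (1.70 to 3.72) in LPS+RT against LPS. Mcm3, of the same complex, had 15.5 CPM in LPS+RT, 56.4 CPM in LPS, 28.4 CPM in PBS+RT and 38.7 CPM in PBS, 3.64-fold lower (2.28 to 6.11) in LPS+RT against LPS. Rrm1, a ribonucleotide reductase gene that supplies DNA building blocks, had 18.4 CPM in LPS+RT, 42.9 CPM in LPS, 36.2 CPM in PBS+RT and 34.9 CPM in PBS, 2.33-fold lower (1.48 to 3.79) in that comparison.

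Few NK cells held division genes, and single cells carry part of these levels. Mki67, a gene of dividing cells, had 22.1 CPM in LPS+RT, 81.4 CPM in LPS, 86.6 CPM in PBS+RT and 17.5 CPM in PBS, from 30 UMIs in 9 cells of LPS+RT, 169 UMIs in 23 cells of LPS, 67 UMIs in 2 cells of PBS+RT and 14 UMIs in 3 cells of PBS. In PBS+RT 98.5% of them lay in 1 cell, and without the top cell of each library the log2 ratio was 2.36 in LPS+RT against PBS+RT, in place of -1.97, and -1.54 in PBS+RT against PBS, in place of 2.31. With LPS+RT against LPS it was 3.68-fold lower (2.49 to 5.63). In thinned cells Mki67 was found in 1.34% in LPS+RT, 4.51% in LPS, 1.01% in PBS+RT and 0.794% in PBS, against 1.32% in LPS+RT, 0.654% in LPS, 0.694% in PBS+RT and 1.23% in PBS of B-gated cells, so the gap to B-gated cells was widest in LPS. Top2a, the topoisomerase gene of the G2 and M phases, had 25.8 CPM in LPS+RT, 80.9 CPM in LPS, 89.1 CPM in PBS+RT and 37.4 CPM in PBS, with 72.5% of the PBS+RT UMIs in 1 cell. It was 3.14-fold lower (2.17 to 4.66) in LPS+RT against LPS. Hist1h1b, a linker histone gene transcribed in S phase and outside the list, had 30.9 CPM in LPS+RT, 212 CPM in LPS, 103 CPM in PBS+RT and 23.7 CPM in PBS, 8.94-fold higher (5.66 to 14.99) in LPS against PBS and 6.85-fold lower (4.99 to 9.64) in LPS+RT against LPS.

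Targets of p53, the factor that responds to DNA damage, were compared 24 hours after irradiation. Of 37 genes 15 were compared, of which 5 were higher and 1 lower in LPS+RT against LPS (median 0.27), and 4 higher and 2 lower in PBS+RT against PBS (median 0.05, below that of all genes, 0.19). The backgrounds are 6.2% and 24.7% higher, and 8.68% and 11.4% lower. Ddit4 was the member lower in LPS+RT against LPS and 1 of the 2 lower in PBS+RT against PBS. Its log2 ratios were -0.81 and -0.91, both with intervals below 0. In LPS against PBS 2 were higher and 2 lower (median 0.07), and in LPS+RT against PBS+RT 1 higher and 0 lower (median 0.23). Bax, which encodes a protein that opens the mitochondrial outer membrane in apoptosis, had 149 CPM in LPS+RT, 65.0 CPM in LPS, 106 CPM in PBS+RT and 111 CPM in PBS. LPS was lowest and LPS+RT highest, 2.29-fold higher (1.83 to 2.87) against LPS. PBS+RT and PBS could not be told apart, 1.05-fold lower (0.768 to 1.43). Cdkn1a (chr17:29090976-29100727), the gene of p21, which halts the cell cycle, had 88.4 CPM in LPS+RT, 77.6 CPM in LPS, 63.3 CPM in PBS+RT and 37.4 CPM in PBS. It was 1.69-fold higher (1.05 to 2.76) in PBS+RT against PBS and 1.14-fold higher (0.892 to 1.45) in LPS+RT against LPS, an interval that includes 1. In LPS against PBS, both without irradiation, it was 2.07-fold higher (1.396 to 3.17).

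Mdm2, the negative regulator of p53, had 83.3 CPM in LPS+RT, 78.1 CPM in LPS, 78.8 CPM in PBS+RT and 68.6 CPM in PBS and passed 1.5-fold in none of the 4 comparisons. Trp53inp1, which encodes a p53-induced nuclear protein, was higher in both irradiated libraries, with 96.5 CPM in LPS+RT, 61.2 CPM in LPS, 116 CPM in PBS+RT and 71.1 CPM in PBS. It was 1.58-fold higher (1.23 to 2.03) in LPS+RT against LPS and 1.63-fold higher (1.16 to 2.32) in PBS+RT against PBS, 2 comparisons that share no library. Pvt1, a long noncoding p53 target next to Myc, had 139 CPM in LPS+RT, 86.7 CPM in LPS, 143 CPM in PBS+RT and 57.4 CPM in PBS, 1.61-fold higher (1.30 to 1.98) and 2.50-fold higher (1.76 to 3.603) in the same comparisons. Pvt1 is among the longest genes, which as a whole were higher in PBS+RT than in PBS. Ccng1, a cyclin gene induced by p53, had 51.6 CPM in LPS+RT, 43.8 CPM in LPS, 55.6 CPM in PBS+RT and 33.7 CPM in PBS. In thinned cells Cdkn1a was found in 13.8% in LPS+RT, 10.5% in LPS, 12.1% in PBS+RT and 8.73% in PBS, against 5.26% in LPS+RT, 1.96% in LPS, 4.86% in PBS+RT and 1.96% in PBS of B-gated cells. Bax was found in 23.7% in LPS+RT, 11.3% in LPS, 19.2% in PBS+RT and 15.9% in PBS, against 16.8% in LPS+RT, 9.15% in LPS, 8.68% in PBS+RT and 12.7% in PBS.

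Of 21 genes of the BCL2 family and caspases 14 were compared, of which 3 were higher and 3 lower in LPS against PBS (median 0.31), 4 higher and 2 lower in LPS+RT against PBS+RT (median -0.08), 2 higher and 2 lower in LPS+RT against LPS (median -0.17), and 4 higher and 4 lower in PBS+RT against PBS (median 0.14). Bcl2, the survival gene on which NK cells depend, had 739.7 CPM in LPS+RT, 745 CPM in LPS, 917 CPM in PBS+RT and 597 CPM in PBS. It was 1.54-fold higher (1.37 to 1.73) in PBS+RT against PBS, a log2 ratio of 0.62 that was -0.01 with the length trend removed. Bcl2l11, which encodes the death-promoting BIM, had 570.2 CPM in LPS+RT, 696 CPM in LPS, 609.8 CPM in PBS+RT and 346 CPM in PBS, lowest in PBS, and was 2.01-fold higher (1.77 to 2.30) in LPS against PBS. Bcl2l1, which encodes the survival protein BCL-XL, had 22.1 CPM in LPS+RT, 44.8 CPM in LPS, 33.6 CPM in PBS+RT and 20.0 CPM in PBS, 2.24-fold higher (1.31 to 4.09) in LPS against PBS and 2.03-fold lower (1.33 to 3.17) in LPS+RT against LPS. Mcl1, another survival gene, had 249.8 CPM in LPS+RT, 306 CPM in LPS, 262 CPM in PBS+RT and 248 CPM in PBS.

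Immediate early and stress genes passed 1.5-fold upward more often than all genes in both comparisons of LPS with saline. Of 29 genes 27 were compared, of which 14 were higher and 0 lower in LPS+RT against PBS+RT (median 0.64, background 6.86% higher), and 11 higher and 0 lower in LPS against PBS (median 0.31, background 14.5% higher). Among the 14, Egr1 and Klf4 had log2 ratios of 0.90 and 1.23, which were -0.32 and -0.02 in the narrower gate. With LPS+RT against LPS 8 were higher and 2 lower (median 0.23), and in PBS+RT against PBS 4 were higher and 6 lower (median -0.19). Tissue dissociation also induces such genes. Jun, which encodes a subunit of AP-1, had 347 CPM in LPS+RT, 224 CPM in LPS, 63.3 CPM in PBS+RT and 116 CPM in PBS. It was 5.48-fold higher (4.08 to 7.52) in LPS+RT against PBS+RT. In LPS+RT 23.1% of its UMIs lay in 1 cell, and the log2 ratio of LPS+RT to LPS was 0.63, or 0.01 in the narrower gate. Hspa1a, an inducible HSP70 gene, had 139 CPM in LPS+RT, 89.1 CPM in LPS, 9.04 CPM in PBS+RT and 23.7 CPM in PBS, 15.4-fold higher (7.33 to 38.8) in LPS+RT against PBS+RT, and its near-identical copy Hspa1b had 153 CPM in LPS+RT, 119 CPM in LPS, 19.4 CPM in PBS+RT and 32.5 CPM in PBS. Reads of these copies cannot be told apart with certainty.

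Zfp36, which encodes an RNA-binding protein that limits cytokine transcripts, had 241 CPM in LPS+RT, 104 CPM in LPS, 77.5 CPM in PBS+RT and 97.4 CPM in PBS, 2.33-fold higher (1.95 to 2.78) in LPS+RT against LPS, a log2 ratio of 1.22 that was 0.57 in the narrower gate. Nfkbiz, which encodes the inhibitor-like co-activator I-kappa-B zeta of NF-kB, had a different pattern, with 205 CPM in LPS+RT, 368 CPM in LPS, 199 CPM in PBS+RT and 93.6 CPM in PBS. It was highest in LPS, 3.93-fold higher (3.09 to 5.05) against PBS, and 1.79-fold lower (1.56 to 2.07) in LPS+RT against LPS. Dusp2, a phosphatase gene that ends MAP kinase signals, had 379 CPM in LPS+RT, 359 CPM in LPS, 147 CPM in PBS+RT and 311 CPM in PBS, lowest in PBS+RT. Klf2, which encodes a quiescence factor of lymphocytes and is itself a member of the homing list, had 641 CPM in LPS+RT, 432 CPM in LPS, 373 CPM in PBS+RT and 532 CPM in PBS and was 1.72-fold higher (1.501 to 1.97) in LPS+RT against PBS+RT.

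Of 24 glycolysis and hypoxia genes 18 were compared, of which 2 were higher and 2 lower in LPS against PBS (median -0.01, or 0.36 after thinning). With LPS+RT against PBS+RT 7 were higher and 0 lower (median 0.32), in LPS+RT against LPS 1 was higher and 1 lower (median -0.22), and in PBS+RT against PBS 0 were higher and 5 lower (median -0.26). Hif1a, the gene of the hypoxia factor, had 90.6 CPM in LPS+RT, 148 CPM in LPS, 84.0 CPM in PBS+RT and 66.2 CPM in PBS, 2.24-fold higher (1.67 to 3.06) in LPS against PBS and 1.64-fold lower (1.32 to 2.04) in LPS+RT against LPS. Gapdh, a glycolytic enzyme gene, had 261 CPM in LPS+RT, 309.8 CPM in LPS, 169 CPM in PBS+RT and 327 CPM in PBS, 1.93-fold lower (1.56 to 2.40) in PBS+RT against PBS. Ldha, the lactate dehydrogenase gene, had 157 CPM in LPS+RT, 192 CPM in LPS, 137 CPM in PBS+RT and 169.8 CPM in PBS. Gapdh is among the shortest genes, which as a whole were lower in PBS+RT than in PBS. Of 21 genes of growth and biosynthesis 16 were compared, of which 0 were higher and 1 lower in LPS against PBS (median -0.09, or 0.14 with the length trend removed), 2 higher and 2 lower in LPS+RT against PBS+RT (median 0.02), 0 higher and 1 lower in LPS+RT against LPS (median -0.14), and 1 higher and 2 lower in PBS+RT against PBS (median -0.43). Myc, the gene of a growth regulator, had 13.3 CPM in LPS+RT, 27.0 CPM in LPS, 9.04 CPM in PBS+RT and 6.24 CPM in PBS, 4.32-fold higher (1.75 to 13.8) in LPS against PBS. Tfrc, the transferrin receptor gene for iron uptake, had 20.6 CPM in LPS+RT, 31.3 CPM in LPS, 37.5 CPM in PBS+RT and 26.2 CPM in PBS, and Slc7a5, an amino acid transporter gene of activated lymphocytes, had 22.1 CPM in LPS+RT, 15.4 CPM in LPS, 18.1 CPM in PBS+RT and 9.99 CPM in PBS.

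MHC class I presentation genes, which protect cells from NK attack, had 19 of 20 members compared, of which 1 was higher and 0 lower in LPS against PBS (median -0.05, or 0.21 with the length trend removed). Against PBS+RT, LPS+RT had 2 higher and 1 lower (median 0.07, or 0.31 after thinning), in LPS+RT against LPS 0 higher and 4 lower (median -0.28), and in PBS+RT against PBS 1 higher and 3 lower (median -0.45, or -0.06 with the length trend removed). B2m, the shared light chain gene, had 1729 CPM in LPS+RT, 1688 CPM in LPS, 1353 CPM in PBS+RT and 1874 CPM in PBS and passed 1.5-fold in none of the 4 comparisons.

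**Figure D5:**
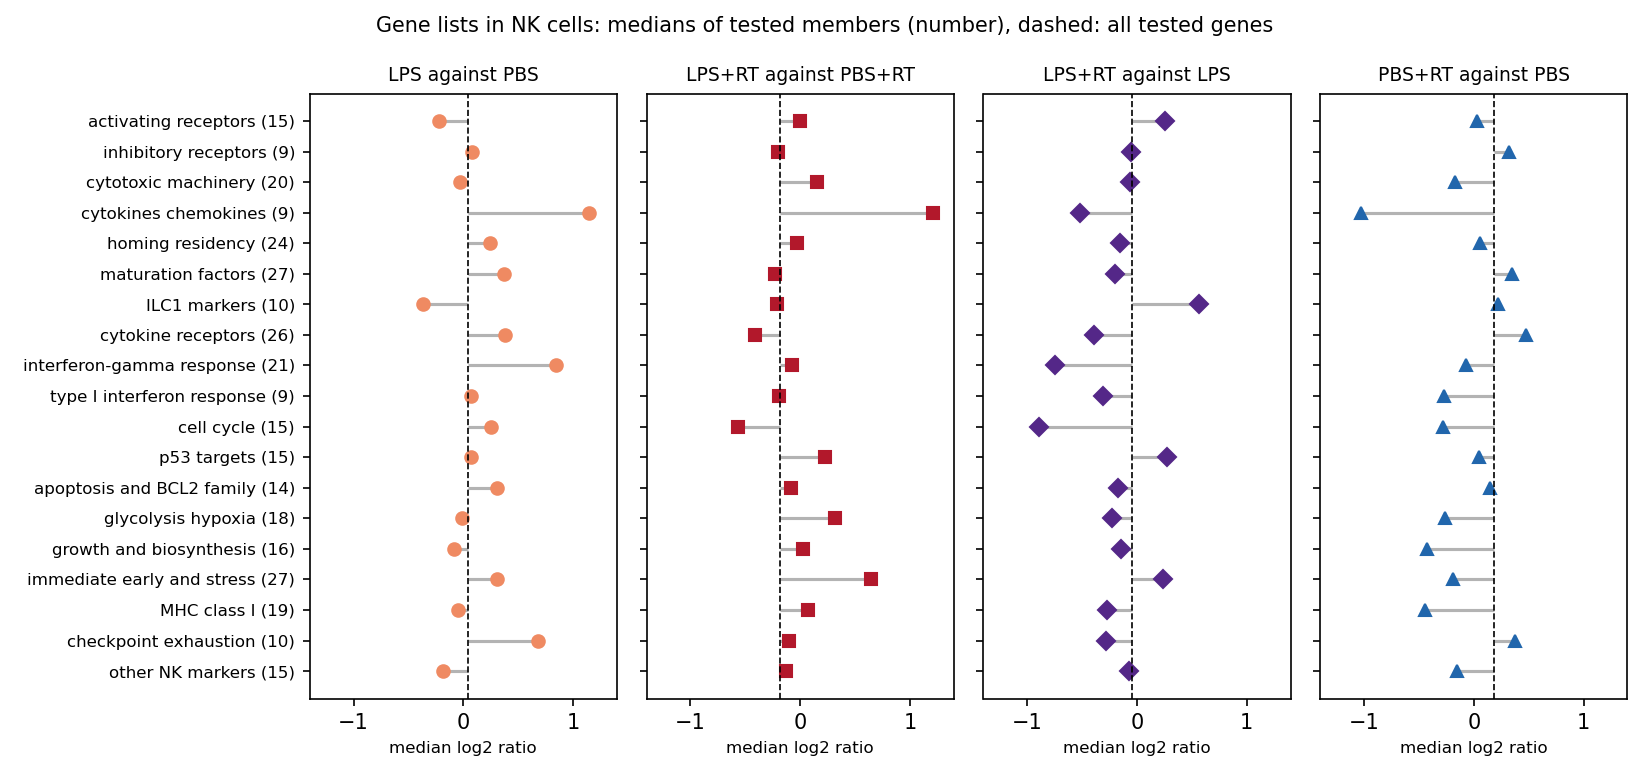
Median log2 ratio (x axis) of the compared members of 19 gene lists (y axis, number of members in brackets) in NK cells, in 1 panel for each comparison; dashed lines are the median of all 6060 genes. Cytokines and chemokines lie right of the line in LPS against PBS and in LPS+RT against PBS+RT (1.15 and 1.21), interferon-gamma response right of it in LPS against PBS and left of it in LPS+RT against LPS (0.85 and -0.75), and cell cycle left of it in LPS+RT against LPS (-0.89).

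Beyond the lists, the genes ranked by the size of their difference added some with a known role. Furin, which encodes a protease that activates TGF-beta and other precursors, had 63.4 CPM in LPS+RT, 143 CPM in LPS, 33.6 CPM in PBS+RT and 20.0 CPM in PBS. It was 7.17-fold higher (4.34 to 12.7) in LPS against PBS, and 53.5% of its UMIs in LPS+RT lay in 1 cell. Gpr155, an orphan receptor-like gene, had 19.2 CPM in LPS+RT, 76.6 CPM in LPS, 10.3 CPM in PBS+RT and 4.99 CPM in PBS, found in 67 NK cells of LPS, and was 15.3-fold higher (5.88 to 57.0) in LPS against PBS and 4.00-fold lower (2.63 to 6.31) in LPS+RT against LPS. Pde5a, which encodes a phosphodiesterase that breaks down cyclic GMP, had 30.2 CPM in LPS+RT, 185 CPM in LPS, 128 CPM in PBS+RT and 36.2 CPM in PBS, with LPS and PBS+RT high. Slc15a2, a peptide transporter gene, had 17.7 CPM in LPS+RT, 46.3 CPM in LPS, 93.0 CPM in PBS+RT and 16.2 CPM in PBS, with PBS+RT highest. Frmd5 had 22.1 CPM in LPS+RT, 18.3 CPM in LPS, 85.3 CPM in PBS+RT and 9.99 CPM in PBS and Scaper 102.4 CPM in LPS+RT, 107 CPM in LPS, 221 CPM in PBS+RT and 56.2 CPM in PBS, both highest in PBS+RT too. Pak1, a kinase gene of cytoskeletal signalling, had 14 CPM in LPS+RT, 67.5 CPM in LPS, 32.3 CPM in PBS+RT and 16.2 CPM in PBS.

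Among the genes lowest in LPS against PBS were Angpt1, Fhit, Ubald1, Frat2, Ccdc85b, Gm36723 and Sptssa, with log2 ratios of -1.37, -1.24, -1.71, -1.66, -1.37, -1.31 and -1.27. Lowest in PBS+RT against PBS were Xcl1, Mif, Sdhd and Timm10b, the last 3 with -1.51, -1.64 and -1.44. Angpt1, which encodes angiopoietin-1, a ligand of the endothelial receptor TIE2, had 145 CPM in LPS+RT, 39.5 CPM in LPS, 139.5 CPM in PBS+RT and 102.3 CPM in PBS. LPS stood lowest, 2.59-fold lower (1.88 to 3.56) against PBS, and LPS+RT was 3.67-fold higher (2.83 to 4.81) against LPS. Fhit, a nucleotide hydrolase gene at a fragile site, had 94.3 CPM in LPS+RT, 48.2 CPM in LPS, 256 CPM in PBS+RT and 114 CPM in PBS, 2.36-fold lower (1.75 to 3.16) and 1.96-fold higher (1.495 to 2.57) in the same comparisons and highest in PBS+RT. Other genes ranked high in LPS+RT rest on few cells: 98.6% of the Rhoj UMIs, 84.5% of those of Hspb1, 78.2% of those of Cp and 76.7% of those of Tbc1d4 lay in 1 NK cell of LPS+RT each, as did 60.5% for Limch1, 42.7% for Npnt and 33.6% for Plxdc2. Rhoj, with 260.1 CPM in LPS+RT, 0.964 CPM in LPS, 7.75 CPM in PBS+RT and 3.74 CPM in PBS, had a log2 ratio of 5.07 in LPS+RT against PBS+RT and of -0.49 without the top cells.

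The 2 comparisons of LPS with saline share no library. Of the 877 genes higher in LPS against PBS, 69 (7.87%) were also higher in LPS+RT against PBS+RT, which is 16.6% of the 416 higher there, and 220 (25.1%) were lower there, where 6.86% of all genes were higher and 17.1% lower. Of all genes 14.5% were higher and 10.7% lower in LPS against PBS. The 69 include Ifng, Xcl1, Ccl3, Cd69 and Jun. Of the 647 lower, 69 (10.7%) were also lower in LPS+RT against PBS+RT, 6.65% of the 1038 lower there, S1pr1 and Fhit among them, and 108 (16.7%) were higher. The 2 comparisons of irradiated with unirradiated lungs share no library either. There 57 genes were higher in both, 15.2% of 376 in LPS+RT against LPS, where 24.7% of all genes were higher in PBS+RT against PBS, and 3.81% of 1498 in PBS+RT against PBS, where 6.20% of all genes were higher in LPS+RT against LPS, Trp53inp1, Pvt1 and Fhit among them. In both 28 were lower, 5.32% of 526 against 11.4% of all genes, and 4.04% of 693 against 8.68% of all genes, among them Xcl1, Mcm5 and Ddit4. Opposite calls were more frequent than these backgrounds. Of the 376 higher in LPS+RT against LPS, 91 (24.2%) were lower in PBS+RT against PBS, against 11.4% of all genes. Of the 526 lower, 183 (34.8%) were higher there, against 24.7% of all genes.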

How the data were processed

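Single-cell RNA was measured in 4 libraries, 1 each from LPS+RT, LPS, PBS+RT and PBS lungs, with total depths of 65995600 to 80013887 UMIs. The deposited values are UMI counts per gene and barcode, as deposited by the authors; per the file headers they come from Cell Ranger 7.0.1, and the submitters' processing notes name mm10, R 4.2.2 and Seurat 4.3.0. Whether intronic reads were counted is not given in the sources used here, and it would raise long genes. Cell barcodes shared between libraries were not analysed here.

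Barcodes under 500 UMIs or 200 genes, or above 10% mitochondrial UMIs, were left out. Doublets were not called; a member with any UMI of 8 genes of other cells was removed. The members and gene lists were chosen with earlier results of these data known. UMIs were summed over the NK cells of a library and divided by their total (CPM). Of 32285 genes, 6060 with a mean of at least 20 CPM were compared, without mitochondrial, ribosomal, hemoglobin, immunoglobulin and rule genes. A fold is a ratio of CPM, with an exact conditional binomial interval; shares have Clopper-Pearson and levels Poisson intervals, all at 95%. Reads of PCR copies are merged by UMI, and intervals cover counting error only. With 1 library per group no test was run.

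Named genes were a list of NK genes at 20 CPM or more in 1 library; the 8 highest and 8 lowest ratios in LPS against PBS and in LPS+RT against LPS, and 4 and 4 in the other comparisons, ranked after adding 10 CPM, with a minimum of 50 CPM and of 30 UMIs where higher, no marker of another cell type and at least 1/5 of the level in 5 other gates; 3 members per list with the largest change; and the rule genes. Trac, S100a8, S100a9 and Sftpc, and the members Gbp7, Serpina3g, Psmb9, Psmb10, Tap2, Tapbp, Mcm5 and Ddit4, were named outside it, after their values were seen. Counts of Klra genes, Hspa1a and Hspa1b, and Serpinb9 and Serpinb9b are uncertain because of near-identical copies. Positions are from GENCODE M21 on mm10, and promoters from RefSeq on GRCm38.p6. Alternatives were thinning of each cell to 2000 UMIs, size factors, other filters and gates, equal weight per cell, and neutrophil RNA subtracted. Leaving out the top cell of each gene, the narrower gate and the removal of the length trend were added after seeing the data. The work used scipy 1.17.1, numpy 2.4.6, matplotlib 3.10.9 and pandas 2.3.3 under Python 3.11.15, and was tested on simulated data. Some genes that the rule for named genes selects are not reported here.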

Additional observations from a re-analysis of the deposited data

Results flagged for a closer look

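Some named genes moved in opposite directions in comparisons that share no library, with both intervals for counting error clear of 0. That limit on intervals was set after a first, wider rule had given 138 values. The differences between the comparisons were not tested.

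In LPS against PBS and in LPS+RT against PBS+RT, the log2 ratios of immune genes were 3.24 and -1.03 for Gbp5 and 1.83 and -0.74 for Pim2. Cycle genes had 2.22 and -1.97 for Mki67 and 3.16 and -1.74 for Hist1h1b. Slc15a2 had 1.51 and -2.40, Pde5a 2.35 and -2.08, Pak1 2.06 and -1.21 and Scaper 0.93 and -1.11. In the opposite sense Plxdc2 had -1.44 and 1.58, Cp -1.27 and 2.63, Limch1 -1.59 and 1.92, Npnt -1.52 and 2.25, Mif -0.93 and 0.89, Sdhd -1.08 and 1.04 and Timm10b -1.21 and 0.77.

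In LPS+RT against LPS and in PBS+RT against PBS, the log2 ratios were -0.71 and 1.14 for Tigit, -0.69 and 0.60 for Irf1, -2.83 and 1.44 for Gbp5, -1.88 and 2.31 for Mki67 and -2.78 and 2.12 for Hist1h1b. They were -1.39 and 2.52 for Slc15a2 and -2.61 and 1.82 for Pde5a. In the opposite sense they were 0.92 and -0.98 for Ccdc85b, 3.92 and -2.27 for Hspb1, 0.64 and -1.39 for Hspa1a, 2.40 and -1.11 for Limch1 and 2.03 and -1.73 for Npnt. Of the PBS+RT UMIs 98.5% for Mki67 and 75.0% for Hist1h1b lay in 1 cell, and of the LPS+RT UMIs 84.5% for Hspb1 and 78.2% for Cp.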

How the results depend on the processing

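No paired analysis was possible because each group is 1 library, and no replicate could be left out. A planned stricter gate was not used for expression once it was seen to hold 7 LPS+RT, 40 LPS, 5 PBS+RT and 17 PBS cells. All 24 share values stayed within the limit set for a change, though the interval of LPS+RT against LPS includes 1 in 4 settings. Of 6403 values of named genes 5807 moved little, 572 moved and 24 reversed; of 836 list medians 815 moved little. The cause of each change below was not tested, except that a filter changes how many genes are counted.

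Genes called higher in LPS against PBS, LPS+RT against PBS+RT, LPS+RT against LPS and PBS+RT against PBS numbered 2229, 2243, 3610 and 3201 without a filter and 534, 143, 97 and 920 at 50 CPM; those called lower 3309, 3312, 1969 and 2352, and 199, 505, 275 and 331. Thinned, 854 and 728 were higher in LPS+RT against PBS+RT and LPS+RT against LPS, and 1019, 824 and 1113 lower in LPS against PBS, LPS+RT against LPS and PBS+RT against PBS. With size factors 736 were higher and 496 lower in LPS+RT against PBS+RT, and 862 higher and 1109 lower in PBS+RT against PBS. With the length trend removed 604 were higher in PBS+RT against PBS and 474 lower in LPS+RT against PBS+RT.

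Medians after thinning were 0.36 and -0.33 for glycolysis in LPS against PBS and LPS+RT against LPS, in LPS+RT against PBS+RT 0.14 for interferon-gamma response, 0.18 for inhibitory receptors (0.14 unfiltered) and 0.31 for MHC class I, and -0.64 for MHC class I in PBS+RT against PBS. At 50 CPM they were -0.97 for type 1 innate lymphoid markers in LPS against PBS and 0.40 for type I interferon in PBS+RT against PBS. With size factors they were 0.32 for cytotoxic genes, 0.10 for interferon-gamma response and -0.052 for maturation in LPS+RT against PBS+RT, and -0.63 for MHC class I, -0.61 for biosynthesis and -0.34 for other NK markers in PBS+RT against PBS. With the length trend removed they were 0.0036 and 0.015 for maturation in LPS+RT against PBS+RT and PBS+RT against PBS, 0.21 and -0.062 for MHC class I in LPS against PBS and PBS+RT against PBS, 0.14 for biosynthesis in LPS against PBS and 0.19 for cytokine receptors in PBS+RT against PBS.

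Single genes reversed as follows. Without the top cell the log2 ratio was -0.021 for Gpr183 and -1.54 for Mki67 in PBS+RT against PBS, and 2.36 for Mki67 and -0.49 for Rhoj in LPS+RT against PBS+RT. Thinned it was -0.15 for Hspa1a and -0.42 for Klf4 in LPS+RT against LPS, -0.12 for Ikzf2 and -0.0076 for Pvt1 in LPS against PBS, and -0.12 for Khdc1a in LPS+RT against PBS+RT. In LPS+RT against PBS+RT it was -0.052 for Gpr155 with equal weight per cell, -1.03 for Rhoj and -0.77 for Tbc1d4 with no Ly49 gene in the rule, and -0.13 for Furin, -1.75 for Rhoj and -0.85 for Tbc1d4 with 3 marker UMIs. In the narrower gate it was there -0.32 for Egr1, -0.023 for Klf4, -0.21 for Limch1, 0.17 for Pak1, -0.83 for Plxdc2, -1.72 for Rhoj and -1.63 for Tbc1d4. It was 1.60 for S100a9 in LPS+RT against LPS with neutrophil RNA subtracted, which that gene was used to scale, and -0.0072 for Bcl2 in PBS+RT against PBS with the length trend removed.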
